A study of Homo sapiens with 6 samples.

Results

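The genes described here encode fibronectin, the cell-surface receptors that bind it and related RGD proteins, the enzymes that crosslink the matrix, and 2 further secreted ligands: FN1, SPP1, TGFBI, ITGA5, ITGAV, ITGB3, ITGB5, SDC2, TGM2 and LOX. They are 10 of the 35009 genes in the deposited table, matched by symbol, with 1 row each. The list was chosen by role with results of this same contrast already known, so the members' values are given as a description, without a p-value. All 6 libraries came from THP-1, a single human monocytic leukaemia line, made into macrophages and exposed to ox-LDL, the oxidised low-density lipoprotein that loads macrophages in atherosclerotic plaques. The 3 control libraries carry the genotype label control, and the 3 siMCT4 libraries carry a label of deficiency in MCT4, the lactate exporter encoded by SLC16A3. Both groups therefore share the ox-LDL exposure, and there is no library without it. The dose and time of ox-LDL, how the monocytes were differentiated, the siRNA sequence and any siRNA given to the controls were not found in the labels. The labels do not say whether the 3 libraries of a group came from separate cultures, so the spread behind each p-value may be technical.

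Fibronectin is a secreted dimer that cells assemble into fibrils by pulling on it through integrins, receptors built from 1 alpha and 1 beta chain. The α5β1 integrin is its main assembly receptor, while the αv integrins paired with β3 or β5 bind the same Arg-Gly-Asp (RGD) motif in fibronectin, osteopontin and vitronectin. Transglutaminase 2 stabilises fibronectin by isopeptide bonds and also binds it at the surface beside integrins, and lysyl oxidase crosslinks collagen and elastin laid down on that scaffold. Macrophages make fibronectin, osteopontin and transglutaminase 2 in wounds and in plaques, where these proteins are studied as parts of repair and of the uptake of dead cells.

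Libraries held from 61880619 to 69181938 counts. SLC16A3 fell in the siMCT4 libraries, from 108 ± 7.21 to 11.8 ± 1.42 CPM (counts per 1000000 with TMM scaling; SD, n = 3 here and below), a log2 change of -3.20 ± 0.102 (SE) with an adjusted p of 1.12e-06 in edgeR's quasi-likelihood test. An exact two-sided permutation test over the 20 assignments gave 0.1, the smallest value that 3 against 3 libraries allow. All 10 macrophage markers averaged above 1 CPM, and their summed level was 4250 to 4310 CPM in controls and 3340 to 3470 CPM in siMCT4. CSF1R, the most abundant of them, went from 1730 to 946 CPM. Of the 10 markers, 1 was called higher in siMCT4 (adjusted p under 0.05, same test), 6 lower and 3 did not pass. That is 70.0% called, beside 41.4% of all genes tested. The fall of the sum was therefore not shared by all markers. The siMCT4 libraries were uneven. Without siMCT4 library 3, 4894 genes were called higher and 4814 lower, against 4116 and 4144 with all libraries. Without library 1 the calls were 3470 and 3226, and without library 2 they were 3554 and 3329. Only differences of at least 5 times were counted, as follows. In 103 rows of the table, siMCT4 libraries 1 and 2 both held at least 1 CPM and at least 5 times the level of library 3. In 56 rows library 3 held at least 1 CPM and at least 5 times both others. None of the 10 members was among either. The 103 rows included 7 genes of the pathway lists below and 3 marker genes, and the 56 rows included none of these kinds. The 7 were FLNA, ITGA8, LOXL2, PLOD2, THBS1, TNC and VCAN, named after their values were seen. The fibroblast marker COL1A2 had 0 counts in each control, whereas siMCT4 libraries 1, 2 and 3 held 1892, 1782 and 0, and THY1 had 305, 205 and 6 counts there against 8 or 9 in controls. COL1A1, which codes for the partner chain of COL1A2, went the other way, with 182, 175 and 443 counts in siMCT4 and 283 to 399 in controls. PDGFRB had 170, 234 and 58 counts against 51 to 121, and PDGFRA, called higher (adjusted p 0.049), had 166, 146 and 130 against 62 to 99. COL3A1 had 0, 2 and 0 counts in siMCT4, and DCN had 0 in all 3. The summed level of the fibroblast list (7 of its 8 genes have a row) was 6.73 to 8.82 CPM in controls and 8.98 to 42.5 CPM in siMCT4. Genes of this list other than COL1A2 are named after their values were seen. Because of this unevenness, the members' log2 changes with siMCT4 library 3 alone against the controls stand beside the results; with 1 library in an arm, that library is assumed to vary as the controls do.

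Of the 10 members, all of which passed the filter on low counts, 5 were higher in siMCT4 past an adjusted p of 0.05 (FN1, TGM2, LOX, ITGA5 and, by a small margin, SPP1), 2 were lower (ITGB5 and TGFBI) and 3 did not pass (ITGAV, ITGB3 and SDC2). Over the 19944 genes tested, 41.4% passed in either direction, 20.6% as higher and 20.8% as lower. In 7 of 10 members the CPM values of the groups did not overlap, which held for 55.0% of all genes tested. Among genes averaging at least 100 CPM, 69.2% passed (1484 of 2143), and of the 9 members at that level 6 did (66.7%). The share of members called was therefore close to that of other abundant genes. By log2 change, highest first, FN1 ranked 7, TGM2 12 and ITGA5 32 among those 2143 genes, while SPP1 ranked 678, ITGAV 830, ITGB3 837, SDC2 1120, TGFBI 1544 and ITGB5 1745. The members' median log2 change was 0.11, beside -0.01 over all genes tested. Together the members took 0.649% to 0.688% of all counts in controls and 1.63% to 1.67% in siMCT4, of which TGM2 alone took 0.11% and 0.642%. In these bulk libraries, fewer cells expressing a gene and less RNA per cell cannot be told apart.

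**Figure D1:**
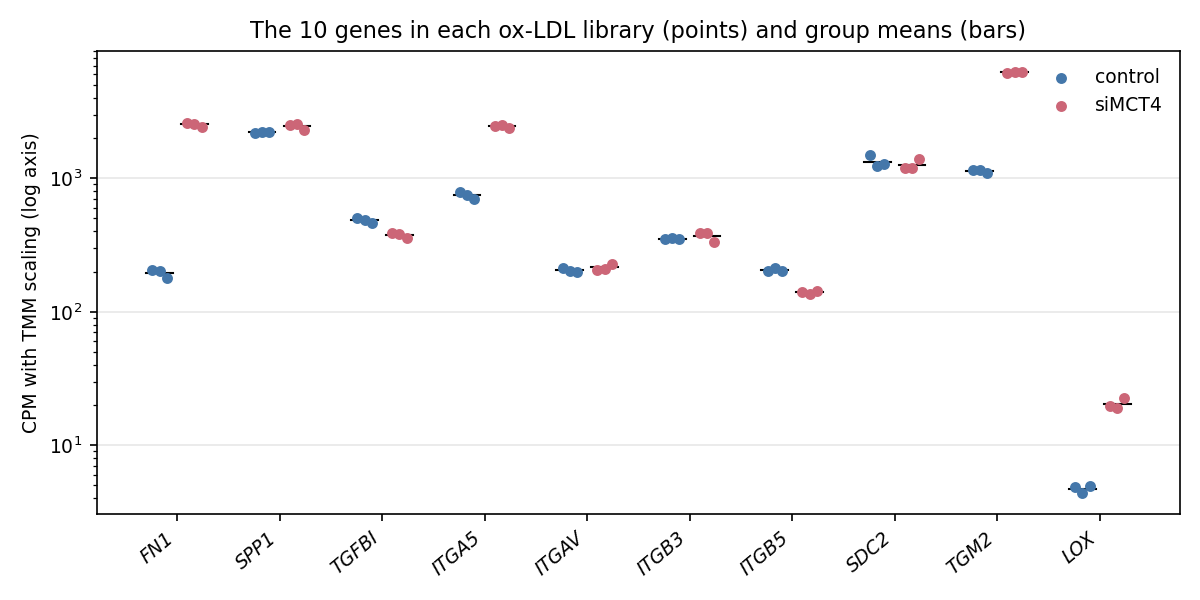
Level of each member in each of the 6 libraries, in CPM on a log axis, with 1 point per library and the group mean as a line. FN1, TGM2, LOX and ITGA5 sit far apart between the groups, ITGB5 and TGFBI are modestly lower in siMCT4, and ITGAV, ITGB3 and SDC2 overlap.

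Among the ligands, fibronectin (FN1, ENSG00000115414, chr2:215360440-215436073 on the minus strand of GRCh38) showed the largest change of the 10. Its control libraries held 207, 202.0 and 178 CPM, and the siMCT4 libraries held 2597, 2567 and 2437 CPM. The groups were thus far from overlapping, and the lowest siMCT4 library stood more than 10 times above the highest control. Mean levels were 196 ± 15.1 and 2534 ± 84.9 CPM, a log2 change of 3.69 ± 0.0688 (SE), and siMCT4 library 3 alone against the controls gave 3.66. FN1 took 0.019% of control counts and 0.261% of siMCT4 counts. Spliced forms of fibronectin, such as those with the extra domains found in wound matrix, cannot be separated in counts per gene.

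Osteopontin (SPP1, ENSG00000118785, chr4:87975667-87983529 on the plus strand), a secreted RGD protein bound by αv integrins and by CD44, was already abundant in the controls. Levels were 2199, 2204 and 2213 CPM in controls and 2507, 2550.0 and 2305 CPM in siMCT4. All siMCT4 libraries lay above all controls, but library 3 lay closer to the controls than to the other siMCT4 libraries. The log2 change was 0.15 ± 0.0462 (SE), it was 0.08 for siMCT4 library 3 alone, and SPP1 failed the threshold in 10 of 18 alternative analyses. FN1 and SPP1 thus differed in size of change by far more than the spread between libraries: the ratio of their FPKM (the deposited unit, adjusted for gene length and library depth) was 0.0373 ± 0.003 in controls and 0.435 ± 0.0107 in siMCT4.

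TGFBI (ENSG00000120708, chr5:136028988-136063818 on the plus strand), named for its induction by TGF-beta, encodes a secreted fasciclin-domain protein that binds collagen and integrins. Its levels were 505, 486 and 463 CPM in controls and 392, 381 and 359 CPM in siMCT4. Every siMCT4 library was below every control, with means of 485 ± 20.8 and 378 ± 17 CPM and a log2 change of -0.36 ± 0.0517 (SE). The value for siMCT4 library 3 alone was -0.41. On TPM, a unit that scales each library to a fixed total per length, it was -0.16 and did not pass. The FPKM ratio of FN1 to TGFBI was 0.181 ± 0.00716 in controls and 3.01 ± 0.0392 in siMCT4, so the order of these ligands was opposite in the groups.

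Promoter windows are shown for 3 members, FN1 and ITGA5 as members that were both higher in siMCT4, and TGFBI as one that was lower. RefSeq's table (GRCh38.p14) matched 7 of the 10 members by symbol, without TGM2, ITGB3 and SDC2. Each line gives the 250 bases before the annotated start, 5′ to 3′ on the gene's strand, at chr2:215436069-215436318 (minus) for FN1, chr12:54419267-54419516 (minus) for ITGA5 and chr5:136028738-136028987 (plus) for TGFBI. Capitals mark matches, on either strand, to 6 motifs that were searched.
FN1: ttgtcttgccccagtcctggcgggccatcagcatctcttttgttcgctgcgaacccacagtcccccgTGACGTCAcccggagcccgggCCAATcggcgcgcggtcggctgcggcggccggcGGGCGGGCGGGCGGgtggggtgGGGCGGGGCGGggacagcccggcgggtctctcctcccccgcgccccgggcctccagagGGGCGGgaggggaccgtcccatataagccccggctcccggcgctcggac
ITGA5: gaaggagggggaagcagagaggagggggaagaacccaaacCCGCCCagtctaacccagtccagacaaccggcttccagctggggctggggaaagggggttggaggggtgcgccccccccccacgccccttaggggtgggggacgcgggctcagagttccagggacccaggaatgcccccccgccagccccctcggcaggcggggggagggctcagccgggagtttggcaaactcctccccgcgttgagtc
TGFBI: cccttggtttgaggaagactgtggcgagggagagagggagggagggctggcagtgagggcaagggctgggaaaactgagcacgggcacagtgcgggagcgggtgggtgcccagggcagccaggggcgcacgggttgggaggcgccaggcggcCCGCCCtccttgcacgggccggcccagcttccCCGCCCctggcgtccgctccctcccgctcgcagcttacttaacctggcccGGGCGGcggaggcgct
The motifs were the TATA box TATAAA, the CCAAT box CCAAT, the GC box GGGCGG, the cyclic AMP response element TGACGTCA, the AP-1 site TGACTCA and the GAS core TTCNNNGAA. They occurred in 10.7%, 32.0%, 42.6%, 1.65%, 4.2% and 6.57% of the 35116 RefSeq promoter windows of the same length. The FN1 window held 1 cyclic AMP response element beginning 183 bases before the start, 1 CCAAT box at 162 bases and 6 GC boxes, some of which share letters, the farthest at 129 bases. ITGA5 had 1 GC box, at 210 bases, and TGFBI had 3, the farthest at 98 bases. All 3 windows were rich in G and C, at 76.4%, 70.0% and 72.8% against a median of 58.0% over all windows, with 32, 12 and 20 CpG dinucleotides. The GC box, the one motif that FN1 and ITGA5 shared, was also present in TGFBI. These matches are letters in a window, and no binding or chromatin data were analysed here.

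Among the receptors, ITGA5 (ENSG00000161638, chr12:54395261-54419266 on the minus strand), the α5 chain that pairs with β1 alone to form the principal fibronectin receptor, was higher. Controls held 783, 751 and 702 CPM, and siMCT4 libraries held 2479, 2494 and 2380.2 CPM. The groups were well apart, with means of 745 ± 40.9 and 2451 ± 61.9 CPM and a log2 change of 1.72 ± 0.0509 (SE), and siMCT4 library 3 alone gave 1.69. ITGB1, the partner chain and not one of the 10, went the other way. It held 1688, 1702 and 1650.0 CPM in controls and 690.5, 691 and 704 CPM in siMCT4, and fell by 1.27 ± 0.0355 (SE) on the log2 scale with an adjusted p of 6.34e-07 (edgeR's quasi-likelihood test). Per length, ITGB1 and ITGA5 were near each other in controls, with an FPKM ratio of 1.14 ± 0.0496, whereas in siMCT4 the ratio was 0.144 ± 0.00529. The β1 chain also serves many other alpha chains, and protein at the surface was not measured.

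The αv chain, ITGAV (ENSG00000138448, chr2:186590010-186680901 on the plus strand), which pairs with β3 and β5 among others, differed little. It held 212, 202 and 199.7 CPM in controls and 205, 211 and 229 CPM in siMCT4. These overlapped, with a log2 change of 0.07 ± 0.0543 (SE), although the deposited FPKM values, which carry no TMM scaling, did not overlap (9.15 to 9.81 in controls and 10.3 to 11.4 in siMCT4). On library totals and on TPM, ITGAV passed as higher, at 0.16 and 0.27. In FPKM the ratio of ITGA5 to ITGAV, the alternative RGD-binding alpha chains here, was 9.54 ± 0.283 in controls and 30.0 ± 2.38 in siMCT4, without overlap. Scaling of libraries cancels in such a ratio.

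The β3 chain ITGB3 (ENSG00000259207, chr17:47253827-47313743 on the plus strand), which forms αvβ3 in macrophages and osteoclasts, held 349.6, 355 and 353 CPM in controls. In siMCT4 it held 386, 388 and 336 CPM, with libraries 1 and 2 above the controls and library 3 below them. Its log2 change was 0.07 ± 0.0609 (SE). Without siMCT4 library 3 it was 0.16 and passed, and with library 3 alone it was -0.05. On TPM, ITGB3 also passed, at 0.27, and in FPKM all 3 siMCT4 libraries (47.4 to 54.9) lay above the controls (45.8 to 47.1).

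The β5 chain ITGB5 (ENSG00000082781, chr3:124761948-124901418 on the minus strand), which forms αvβ5, a vitronectin receptor that phagocytes also use to take up apoptotic cells, was lower. Controls held 203, 212 and 201 CPM and siMCT4 libraries held 140.3, 137 and 142 CPM, so the groups did not overlap. The means were 205 ± 5.75 and 139.9 ± 2.66 CPM, with a log2 change of -0.55 ± 0.0423 (SE), and -0.51 for siMCT4 library 3 alone. Per length, β3 exceeded β5 in each library, by 1.64 ± 0.038 times in controls and 2.53 ± 0.239 times in siMCT4.

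Syndecan-2 (SDC2, ENSG00000169439, chr8:96493813-96611790 on the plus strand), a heparan sulfate proteoglycan that binds the heparin-binding domains of fibronectin and acts beside integrins in fibril assembly, was among the most abundant members. It held 1483, 1245 and 1271 CPM in controls and 1186, 1189 and 1394 CPM in siMCT4, with 1 library of each group standing above its others. The groups overlapped and the log2 change of -0.09 ± 0.089 (SE) did not pass. Its sign was opposite in 5 of 18 alternatives, and in none of the 18 did it pass.

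**Figure D2:**
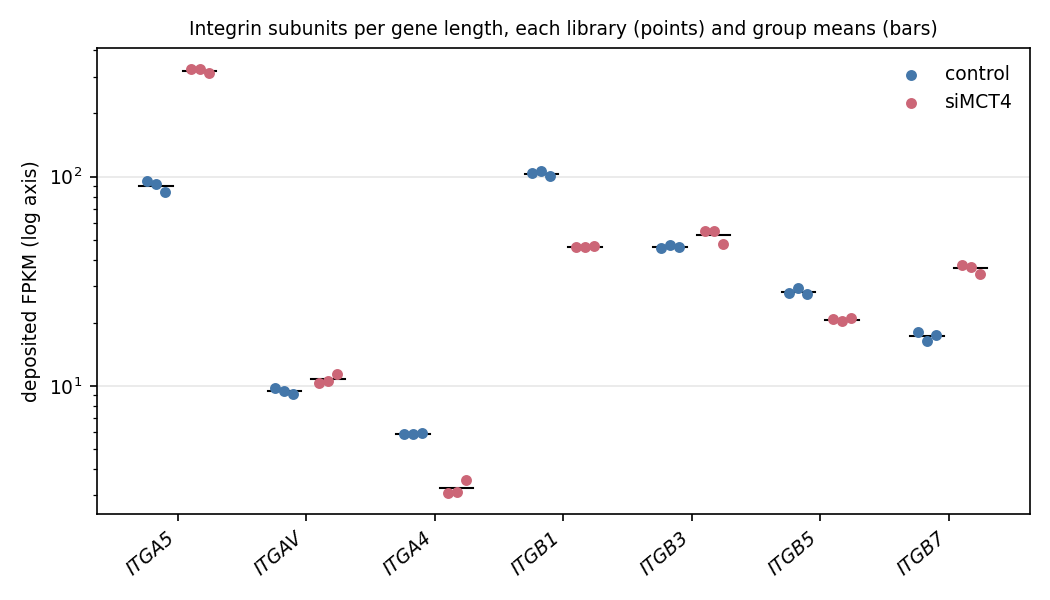
FPKM of the integrin chains by library, on a log axis, with 1 point per library. ITGA5 and ITGB1 lie close together in controls and apart in siMCT4, while ITGAV stays near 10 FPKM in both groups.

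Of the crosslinking enzymes, transglutaminase 2 (TGM2, ENSG00000198959, chr20:38127385-38166578 on the minus strand) was the most abundant member per length in siMCT4. Controls held 1157, 1159 and 1094 CPM and siMCT4 libraries held 6171, 6244 and 6279 CPM. The groups were far apart and the siMCT4 libraries varied little (1137 ± 37.1 and 6232 ± 55.2 CPM). The log2 change was 2.45 ± 0.04 (SE), and 2.48 for siMCT4 library 3 alone. By FPKM, TGM2 went from rank 191 to rank 33 among all genes of the table. The gene RPRD1B, which overlaps it on the opposite strand, had 2274 to 2829 counts per library, against at least 69083 for TGM2.

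Lysyl oxidase (LOX, ENSG00000113083, chr5:122063195-122078413 on the minus strand) was the least abundant of the 10 in both groups. It held 4.83, 4.40 and 4.97 CPM in controls (281 to 324 counts) and 19.7, 19.0 and 22.8 CPM in siMCT4 (1259 to 1616 counts). The groups did not overlap, with a log2 change of 2.11 ± 0.113 (SE) and 2.29 for siMCT4 library 3 alone. On log2(FPKM + 1), where the added 1 compresses low levels, it was 1.37. SRFBP1, on the opposite strand, overlaps LOX and had more counts than LOX in each library (2011 to 3404). The kit marks strand, but whether the counting used it is not stated in the labels, so reads of the 2 genes cannot be told apart with certainty. Per length, TGM2 stood 171 ± 15.8 times above LOX in controls and 216 ± 19.4 times in siMCT4.

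**Figure D3:**
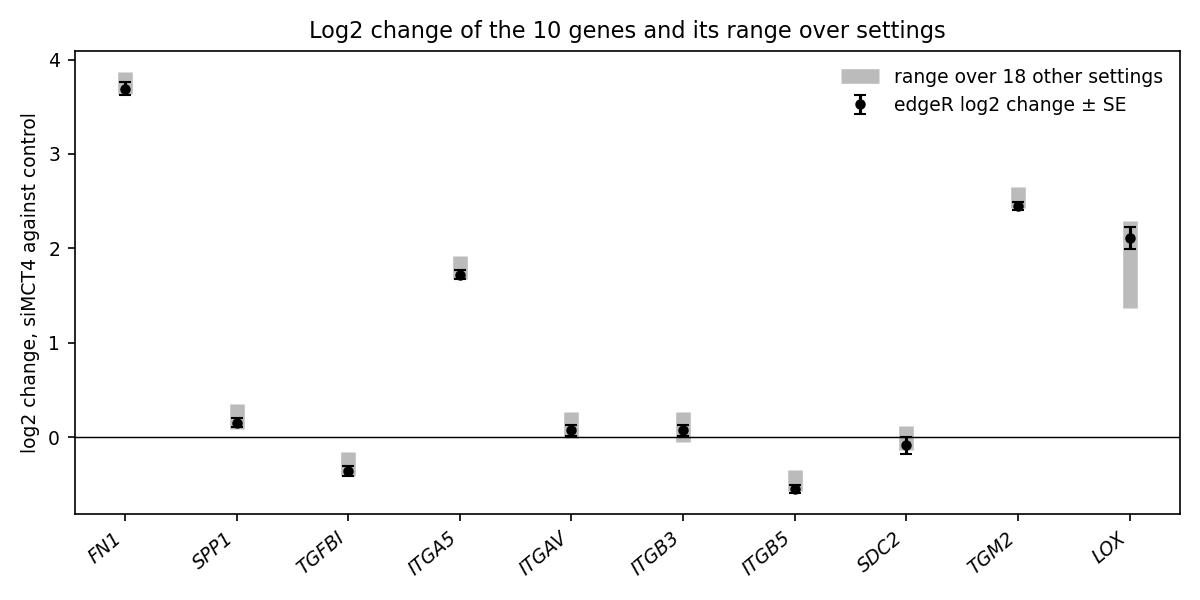
Log2 change (siMCT4 against control) of the 10 members with bars of 1 SE, and in grey the range over the 18 alternative analyses. The points of FN1, TGM2, LOX and ITGA5 lie above 1.5, and those of the other 6 lie between -0.55 and 0.15. The range of LOX reaches down to 1.37.

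The order of the members per length differed between the groups. In controls it ran, by mean FPKM, SDC2 (292), SPP1 (272), TGM2 (128), ITGA5 (90.4), TGFBI (56.2), ITGB3 (46.2), ITGB5 (28.2), FN1 (10.2), ITGAV (9.47) and LOX (0.752). SDC2 and SPP1 differed by less than the SD of SDC2 (28.2), and FN1 and ITGAV overlapped. In siMCT4 it ran TGM2 (757), SPP1 (327), ITGA5 (321), SDC2 (297), FN1 (142), ITGB3 (52.3), TGFBI (47.2), ITGB5 (20.7), ITGAV (10.7) and LOX (3.53). SPP1, ITGA5 and SDC2 could not be ordered beyond their spread there, nor could ITGB3 and TGFBI. FN1 thus moved from beside the αv chain to above ITGB3 and TGFBI, and by FPKM from rank 3318 to rank 163 among all genes.

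The members changed by unequal amounts. FN1 was higher by a ratio of 13 of the mean CPM values, TGM2 by 5.48, LOX by 4.33 and ITGA5 by 3.29. TGM2 to FN1, in FPKM, went from 12.6 ± 0.597 to 5.33 ± 0.224. Between the libraries of a group, the coefficient of variation of CPM ran from 0.324% (SPP1) to 9.81% (SDC2) in controls and from 0.885% (TGM2) to 9.9% (LOX) in siMCT4. For the 4 members with the largest changes, the GC content of the longest transcript was 42.2% in FN1, 39.6% in LOX, 55.1% in TGM2 and 54.5% in ITGA5.

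Around these genes, 6 lists of pathway genes were drawn up from general knowledge, but with earlier results of these data known. They hold 103 genes in all, of which 95 were tested. Of those, 26 rose, 36 fell and 33 did not pass (65.3% called, beside 41.4% of all genes tested and 69.2% of those averaging at least 100 CPM), with a median log2 change of -0.04, beside -0.01 over all genes tested. The counts of the single lists below are to be read beside the same shares, 20.6% higher and 20.8% lower over all genes. With siMCT4 library 3 alone against the controls, where the spread comes from the controls only, 19 of the 26 and 30 of the 36 were also called, and without that library 36 genes were called higher and 38 lower. The adjusted p-values that follow are from edgeR's quasi-likelihood test over all 19944 genes. Because earlier results were known, they describe single genes and are no test of the lists. ITGB6, TGM3, POSTN and COMP were not analysed here.

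Of 6 tested other chains of RGD-binding and fibronectin-binding integrins, 1 rose and 3 fell, with a median of -0.14. The riser was ITGB7, a partner of α4, from 86.2 ± 4.76 to 168 ± 7.93 CPM (log2 0.96, adjusted p 2.1e-05). ITGA4, the α4 chain that binds an alternatively spliced segment of fibronectin and VCAM1, fell from 70.4 ± 1.26 to 35.96 ± 3.08 CPM (log2 -0.97, adjusted p 4.44e-05). ITGA9 fell from 1.03 to 0.42 CPM (adjusted p 0.0263), a call lost in 3 of the 15 alternatives that tested it, with adjusted p-values of 0.0158 to 0.0966 over the 15. ITGB8 did not pass, at 0.28 ± 0.131 and 0.676 ± 0.304 CPM (adjusted p 0.0882). Both β1 and α4 were therefore lower while α5 was higher.

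Of 11 tested other enzymes and chaperones of collagen and matrix crosslinking, 5 rose and 3 fell, with a median of 0.32. SERPINH1, the collagen chaperone HSP47, rose from 26.2 ± 1.80 to 54.5 ± 4.04 CPM (log2 1.05, adjusted p 5.6e-05). P4HA2, a prolyl hydroxylase of collagen, rose from 67.9 ± 1.81 to 123 ± 11.9 CPM (log2 0.86, adjusted p 1.1e-04). PLOD3, a lysyl hydroxylase, fell by 0.43 (adjusted p 4.28e-04), but its change with a GC offset was -0.02 (adjusted p 0.894, within a range of 1.22e-09 to 0.894 over the 18 alternatives, 2 of which lost the call). TGM5, another transglutaminase, held 99, 62 and 73 counts in the control libraries, with 0, 4 and 0 in the siMCT4 ones (adjusted p 0.00109). LOXL3, at 26.2 and 25.1 CPM, did not pass (adjusted p 0.596). LOXL2, a relative of LOX, was not called and was uneven, with 588, 615 and 33 counts in siMCT4 and 95 to 172 in controls; PLOD2, called higher, had 539, 433 and 78 against 13 to 64. LOXL2 and PLOD2 are named after their values were seen. LOX itself, with 1259, 1318 and 1616 counts, did not show that unevenness.

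Of 23 tested other matricellular and adhesive matrix proteins, 7 rose, 6 fell and 10 did not pass, with a median of 0.56. Without siMCT4 library 3, 11 rose, and with it alone 4 did. CCN4 rose from 1.42 ± 0.201 to 17.1 ± 1.01 CPM (log2 3.58, adjusted p 3.35e-06) and CCN2, the connective tissue growth factor, from 0.18 ± 0.046 to 1.65 ± 0.448 CPM (log2 3.18, adjusted p 3e-04). NID1, the basement membrane linker nidogen, fell from 131 ± 9.16 to 48.6 ± 1.47 CPM (log2 -1.43, adjusted p 4.7e-06). MFGE8, an RGD protein that bridges apoptotic cells to αv integrins, fell from 11.8 ± 0.499 to 6.06 ± 0.523 CPM (log2 -0.96, adjusted p 4.48e-04). VTN, which encodes vitronectin, went the other way at low levels, from 0.125 ± 0.0837 to 1.62 ± 0.443 CPM (log2 3.69, adjusted p 8e-04). EDIL3 also rose, from 0.734 ± 0.199 to 2.52 ± 0.709 CPM (log2 1.78, adjusted p 0.00306). VTN and EDIL3 are named after their values were seen. EMILIN2 did not pass at 197 and 199 CPM (adjusted p 0.899). THBS1, called higher, and TNC, not called, were uneven among siMCT4 libraries 1, 2 and 3, at 809, 786 and 12 counts and at 330, 361 and 21 counts, and are named after their values were seen.

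Of 9 tested coreceptors, 3 rose and 5 fell, with a median of -0.16. LRP1, which clears matrix proteins and protease complexes, fell from 803 ± 46.7 to 373 ± 10.5 CPM (log2 -1.11, adjusted p 6.91e-06). The heparan sulfate proteoglycans GPC4 and SDC3 fell too, GPC4 from 1327 ± 24.0 to 749.5 ± 22.7 CPM (log2 -0.82, adjusted p 6.96e-06) and SDC3 from 396 ± 7.64 to 255 ± 1.94 CPM (log2 -0.63, adjusted p 1.66e-05). CD44, the hyaluronan receptor that also binds osteopontin, rose from 513 ± 12.9 to 654 ± 14.9 CPM (log2 0.35, adjusted p 3.82e-04). SDC1 did not pass at 16.7 and 15.0 CPM (adjusted p 0.228).

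Of 27 tested components of the adhesion machinery inside the cell, 5 rose, 11 fell and 11 did not pass, with a median of -0.04. Tensins, which tie α5β1 to actin in fibrillar adhesions, were split: TNS1 fell from 243 ± 8.50 to 78.1 ± 1.99 CPM (log2 -1.64, adjusted p 7.01e-07) and TNS3 rose from 1037 ± 29.3 to 1683 ± 26.0 CPM (log2 0.70, adjusted p 1.23e-05). TNS2 fell as TNS1 did, from 5.08 ± 1.03 to 2.39 ± 0.236 CPM (log2 -1.09, adjusted p 0.00337). TLN2, a talin that activates integrins, fell from 207 ± 10.8 to 64.5 ± 3.69 CPM (log2 -1.68, adjusted p 2.43e-06). TLN1, the more abundant talin, fell less, from 1702 ± 68.1 to 1281 ± 65.6 CPM (log2 -0.41, adjusted p 0.000668). TNS2 and TLN1 are named after their values were seen. PTK2B, the kinase PYK2 of myeloid adhesions, fell from 209.9 ± 1.14 to 108 ± 5.45 CPM (log2 -0.96, adjusted p 8.81e-06). The kinase gene PTK2 went the other way, from 31.3 ± 0.968 to 37.6 ± 1.11 CPM (log2 0.26, adjusted p 0.00902). SRC also rose, from 71.6 ± 3.64 to 91.2 ± 3.18 CPM (log2 0.35, adjusted p 0.00204). PTK2 and SRC are named after their values were seen. LIMS1 did not pass at 993 and 969 CPM (adjusted p 0.739).

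Of 19 tested genes of TGF-beta signalling and its storage in the matrix, 5 rose, 8 fell and 6 did not pass, with a median of -0.16. LTBP2, a latent TGF-beta binding protein family member, fell from 37.2 ± 2.72 to 11.8 ± 0.446 CPM (log2 -1.65, adjusted p 6.91e-06), and TGFBR1, the type I receptor, fell from 273 ± 7.06 to 160.4 ± 10.6 CPM (log2 -0.77, adjusted p 4.83e-05). LRRC32, which anchors latent TGF-beta at the surface, rose from 3.40 ± 0.612 to 22.6 ± 3.35 CPM (log2 2.73, adjusted p 2.46e-05). SMAD7, an inhibitor that the pathway itself induces, rose from 28.7 ± 0.769 to 50.3 ± 2.67 CPM (log2 0.81, adjusted p 5.57e-05). ENG did not pass, at 210.4 ± 18.5 and 203 ± 46.4 CPM (adjusted p 0.824), and passed as higher at 0.44 with a GC offset (adjusted p 0.00116, the lowest over the 18 alternatives, which reached 0.919; -0.05 without the offset). ENG was called lower without siMCT4 library 3 (log2 -0.23) and, with the spread taken from the controls only, higher with that library alone (0.31).

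**Figure D4:**
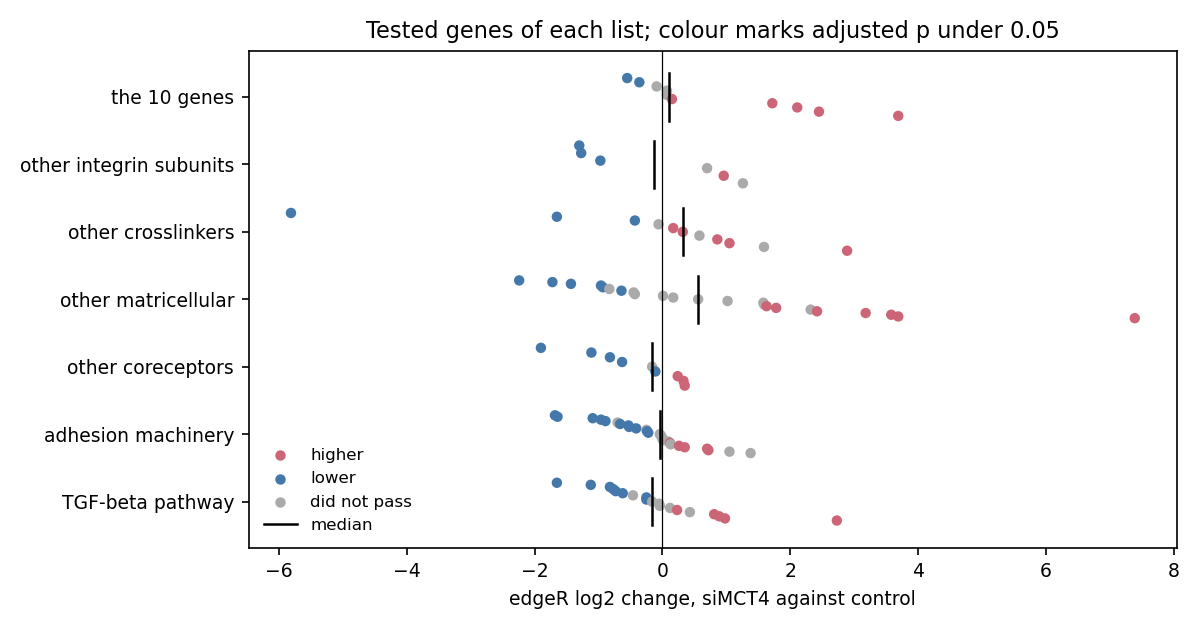
Log2 change (siMCT4 against control) of the tested genes in each of the 6 pathway lists, with 1 point per gene, coloured by whether it passed an adjusted p of 0.05. Each list holds genes that rose and genes that fell.

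Summed levels of markers of other cell types are given as levels only, since such a sum sets no bound on a member's RNA from those cells. The siMCT4 means of ITGA5, FN1 and TGM2 were 2451 to 6232 CPM. That of LOX was 20.5 CPM, which the fibroblast sum exceeded in its highest library (42.5 CPM). By library, LOX held 19.7, 19.0 and 22.8 CPM in siMCT4 libraries 1, 2 and 3. COL1A2, the most abundant gene of the fibroblast list, held 29.6, 25.6 and 0 CPM there. Smooth muscle markers held 6.73 to 9.44 CPM in controls and 8.26 to 11.5 CPM in siMCT4, led by DES at 3.92 and 6.13 CPM, and the counts of ACTA2 were 38, 28 and 67 in siMCT4 against 0, 0 and 4 in the control libraries. Endothelial markers held 0.776 to 1.68 and 0.676 to 0.931 CPM (4 of 6 genes with a row, led over all libraries by TEK). Epithelial markers held 0.141 to 0.285 and 0.24 to 5.03 CPM. Here KRT8 led in controls, and siMCT4 libraries 1 and 2 were the high ones, with KRT18 at 172, 112 and 0 counts and KRT8 at 122, 56 and 13 in siMCT4 libraries 1, 2 and 3. Megakaryocyte markers, included because ITGB3 is also a platelet chain, held 2.86 to 3.51 and 1.75 to 2.76 CPM (3 of 5 genes with a row). GP1BA led over all libraries, and PPBP, the leader in controls, fell from 1.81 to 0.328 CPM (adjusted p 0.000694). ACTA2, KRT8 and PPBP are named after their values were seen. The part of other cells in the members' values was not tested.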

How the data were processed

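The 6 libraries hold poly(A) RNA prepared with a strand-marking dUTP method, per the labels' protocols. Listed in the submitters' processing notes are cutadapt 1.9 (a read trimmer), HISAT2 2.2.1 (an aligner) and the build GRCh38. How reads were counted, and whether by strand, is not given in the sources used here. The deposited table gives, per the file headers, raw counts and FPKM for each gene and library. The counts are whole numbers as the authors left them; the FPKM values, scaled by the authors for length and depth, were used for levels between genes and for ratios.

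Counts were tested with edgeR 4.0.16 (R 4.3.3) by its quasi-likelihood test with TMM scaling and group as the only factor, after filterByExpr (smallest count 10, smallest total 15), two-sided, with Benjamini-Hochberg adjustment over the 19944 genes left and a threshold of 0.05. The common biological coefficient of variation was 0.219. An SE was taken as the absolute log2 change over the root of its F statistic. The procedure was also run on simulated counts, in which far fewer genes were changed than were called here. That run does not give its error rate for these data. Totals per library ran from 61880619 to 69181938 counts.

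The 10 members and all gene lists were chosen with earlier results of these data known. Besides members and SLC16A3, each pathway list names the 4 called genes with the smallest adjusted p and the tested gene not called with the highest mean CPM; for markers, the most abundant. Other names are said to be chosen after seeing values. The 18 alternatives used DESeq2 1.42.0, limma 3.58.1, other scalings and filters, a GC offset (19298 genes with a value), a replicate block and left-out libraries. Whether shared replicate numbers pair the libraries was not settled, and the reported fit used no pairing. Protein sequences were not used here.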

Additional observations from a re-analysis of the deposited data

How the results depend on the processing

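FN1, TGM2, LOX, ITGA5 and ITGB5 kept direction and call in all 18 alternatives, with log2 changes of 3.63 to 3.87, 2.43 to 2.65, 1.37 to 2.29, 1.67 to 1.92 and -0.57 to -0.35. TGFBI lost its call on TPM, where 1 member was called lower instead of 2, and SPP1 lost its call in 10. SPP1 ranged from 0.08 to 0.35. ITGAV ranged from -0.01 to 0.27, ITGB3 from -0.05 to 0.27 and SDC2 from -0.14 to 0.12. On log2(TPM + 1) 68.1% of all calls were higher (6020 higher and 2826 lower), against 49.8% in the reported analysis (4116 and 4144), and the genes' median moved by 0.19 (by 0.104 on log2(FPKM + 0.1)). ENG, not called at -0.05, was 0.44 with the GC offset, 0.45 with the replicate block and GC offset, and 0.31 with siMCT4 library 3 alone; the cause was not tested. Deviations from the group mean had correlations of -0.101, 0.0713 and -0.148 between same-numbered libraries. Differently numbered libraries had correlations of -0.162 to 0.173. Values centred within groups of 3 cannot exclude a shared batch or culture, so pairing by number was not settled. With a replicate block, 4 members were called higher and 2 lower, 21 pathway genes higher and 34 lower, and 3341 genes higher and 3580 lower in all. Leaving out each library in turn gave 4 to 6 members higher and 2 lower, and 19 to 36 pathway genes higher and 27 to 38 lower. SLC16A3 ranged from -3.28 to -2.37. Summing rows of a symbol was not run, since each member has 1 row.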
